A study of Homo sapiens with 22 samples.

Results

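The step from day 18 to day 20 of culture was examined in human haematopoietic progenitor cells that carried ectopic MYC switched on by doxycycline. It was defined by its libraries, the 2 labelled DOX on day 18 and the 2 labelled DOX on day 20, so that 4 of the 22 libraries of the series made up the comparison and all genes entered it. PolyA-selected RNA was sequenced from cells differentiated out of the human embryonic stem cell line H1. The DOX arm was sampled every 2 days from day 12 to day 20, with 2 libraries per day. The untreated arm (UT), which received no doxycycline and had no ectopic MYC, was sampled on the same days and also on day 10. The UT libraries of days 18 and 20 served as the reference for the same step without ectopic MYC, and the earlier days as a reference for direction.

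All 22 titles share 1 name, all libraries carry batch 1, and the labels give neither the promoter that drives the transgene nor the day on which doxycycline was added. No group received doxycycline without ectopic MYC, so the agent and the transgene cannot be told apart. The labels do not say that the 2 libraries of a group came from separate cultures, so every p-value rests on a spread between libraries that may be purely technical. Endogenous and ectopic MYC transcripts share 1 row of the table and were not separated.

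MYC is a transcription factor that binds DNA as a heterodimer with MAX, most often at the E-box CACGTG, and it is known for driving ribosome production, nucleotide synthesis, glycolysis and entry into S phase. MAX also pairs with the MXD, MXI1 and MNT repressors, which occupy the same E-boxes. In blood progenitors MYC normally declines as cells leave the cycle and mature, and its forced expression is a common route to a differentiation block in leukaemia.

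The 4 libraries held between 26704027 and 38791933 counts, against 24730502 to 53508548 in the series. The share of counts from mitochondrially encoded genes was 36.7% ± 0.263 (SD, n = 2) on DOX day 18 and 57% ± 2.43 on DOX day 20, a difference of 20.3 percentage points (two-sided exact permutation test, p = 0.333, the smallest that 2 against 2 libraries allow). The UT arm went from 59.7% ± 4.41 to 72.7% ± 0.332 over the same days. Levels are given as CPM, read counts relative to the library's total after scaling by the trimmed mean of M values (TMM). A gene is called where the Benjamini-Hochberg adjusted p lay under 0.05 in edgeR's quasi-likelihood test fitted over all 22 libraries. In bulk RNA, fewer cells of a type and less RNA per cell cannot be told apart.

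The label of haematopoietic progenitors was checked against markers of blood and other cell types. SPN, the sialoglycoprotein CD43 found on early blood cells and on most leukocytes, stood at 416 and 550.0 CPM on DOX day 18 and at 444 and 592 CPM on day 20, while the stem cell antigen CD34 stood at 12.3 and 9.80 and then at 8.22 and 5.09 CPM, the stem cell factor receptor KIT at 27.0 and 29 and then at 21.0 and 9.14 CPM, and PROM1 at 0 in all 4. SPN was higher in the UT libraries of these days, between 598 and 869 CPM. The progenitor markers MYB and FLT3 were higher on DOX day 20 than on day 18. MYB stood at 70.3 and 62.7 and then at 93.9 and 119 CPM, with UT between 168 and 237 CPM. FLT3 stood at 1.83 and 1.39 and then at 4.64 and 3.31 CPM. Granule genes of maturing cells were far higher in CPM: the eosinophil markers EPX, PRG2, CLC and CCR3 summed to between 7481 and 11267 CPM over the 4 libraries, and the neutrophil markers, led by MPO and PRTN3, to between 1787 and 2055 CPM. The neutrophil marker LTF reached at most 0.752 CPM in these 4 libraries, against 11.9 to 14.2 CPM in UT on days 18 and 20. The 3 lymphoid markers summed to at most 2.65 CPM, the 3 pluripotency markers to at most 0.16 CPM with POU5F1 at 0, and the 5 macrophage markers to between 54.7 and 57.5 CPM. The 5 megakaryocyte markers summed to 1126 and 1415 CPM on DOX day 18 and to 502 and 517 on day 20, and the 5 erythroid markers to 54.2 and 80.9 and then to 22.2 and 27.1 CPM. The 4 endothelial markers, led by PECAM1, summed to 161 and 200 CPM on DOX day 18 and to 107 and 84.2 on day 20. The 4 mast cell markers, led by HDC, summed to 152 and 139 and then to 321 and 291 CPM. The libraries thus held transcripts of maturing granulocytes and of megakaryocytes on both days, with mast cell and endothelial markers at lower sums. Of the progenitor markers, CD34, KIT, FLT3 and PROM1 were low or at 0, whereas SPN and MYB were not.

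MYC itself (chr8:127735434-127741434, plus strand, GRCh38) stood at 66.2 and 56.1 CPM in the 2 DOX libraries of day 18 and at 49.6 and 28.9 CPM on day 20. The UT libraries read 45.0 and 33.2 CPM on day 18 and 34.6 and 28.7 CPM on day 20. On day 20 the lower DOX library lay between the UT libraries and the higher one above both, whereas on day 18 both DOX libraries lay above both UT libraries. The DOX level was 1.55-fold lower on day 20 than on day 18, which did not pass the threshold (log2 fold change -0.64, SE 0.25, adjusted p = 0.091), and the difference from the UT step did not pass either (-0.34, adjusted p = 0.66). The fall did pass without a filter on low counts (-0.65, adjusted p = 0.00079) and with scaling by library size alone (-1.26, adjusted p = 0.0012). It also passed with the replicate number as a block in the model (-0.66, adjusted p = 0.014). On day 20 the DOX level was 1.24-fold that of UT (log2 fold change 0.31, SE 0.26, adjusted p = 0.39), after 1.57-fold on day 18 (adjusted p = 0.051). The day 20 distance rested on 1 library: without DOX day 20 replicate 1 it was -0.125 on the log2 scale (adjusted p = 0.84), and the change over the step was then -1.09 and passed (adjusted p = 0.016). The DOX mean was lower at each sampling than at the one before, with 237 ± 6.81 CPM (SD, n = 2) at day 12. It was 174 ± 13.9 CPM at day 14 and 108 ± 34.1 CPM at day 16. The UT mean also fell at every sampling, from 149 CPM (day 10) through 123.5, 73.4, 53.3 and 39.1 to 31.7 CPM (day 20). A falling MYC level was thus not confined to the DOX arm.

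**Figure D1:**
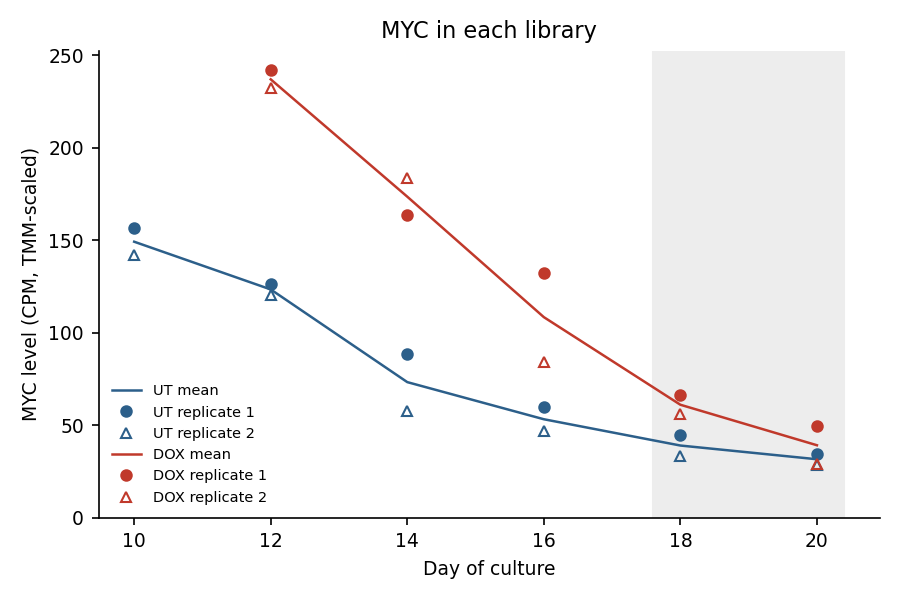
MYC level in every library, in TMM-scaled CPM on a linear axis, against the day of culture. Filled circles are replicate 1, open triangles replicate 2, lines join the group means, and the grey band marks the step. The DOX libraries sit above the UT libraries on day 18 and overlap them on day 20.

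Across all 20115 genes tested, 1398 were higher and 1750 lower on DOX day 20 than on DOX day 18. These are 6.95% and 8.7% of the genes tested, and the shares against which every count below can be read. Of them, 417 rises and 832 falls were at least 2-fold. The rises numbered 501 without DOX day 18 replicate 1, 677 without its replicate 2 and 660 without DOX day 20 replicate 2, and the falls 1158 and 1093 without the 2 libraries of DOX day 18. Over the same days the UT arm had 324 genes higher (1.61%) and 601 lower (2.99%). The difference between the steps of the arms was itself called for 285 genes toward a higher value in DOX (1.42%) and 373 toward a lower one (1.85%). All 658 of these difference calls were lost when only the 8 libraries of the 4 groups were fitted, where 0 genes passed by edgeR's test and 1743 had an unadjusted p under 0.05, so each statement below on a difference between the arms depends on the spread estimated from the other days. Changes are relative to the typical gene: scaling by library size alone moved the median of all genes from -0.01 to -0.66 on the log2 scale, and left 147 genes higher and 8366 lower.

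The DOX and UT steps share no library. Of the genes called higher in DOX, 87 were also called higher in UT, which is 6.22% of the DOX calls and 26.9% of the UT calls. Of the genes called lower in DOX, 231 were called lower in UT, or 13.2% of the DOX calls and 38.4% of the UT calls. Opposite calls were few: 8 genes were higher in DOX and lower in UT, and 17 the reverse. The genes that rose in DOX had a median UT change of 0.22 on the log2 scale and those that fell one of -0.24.

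**Figure D2:**
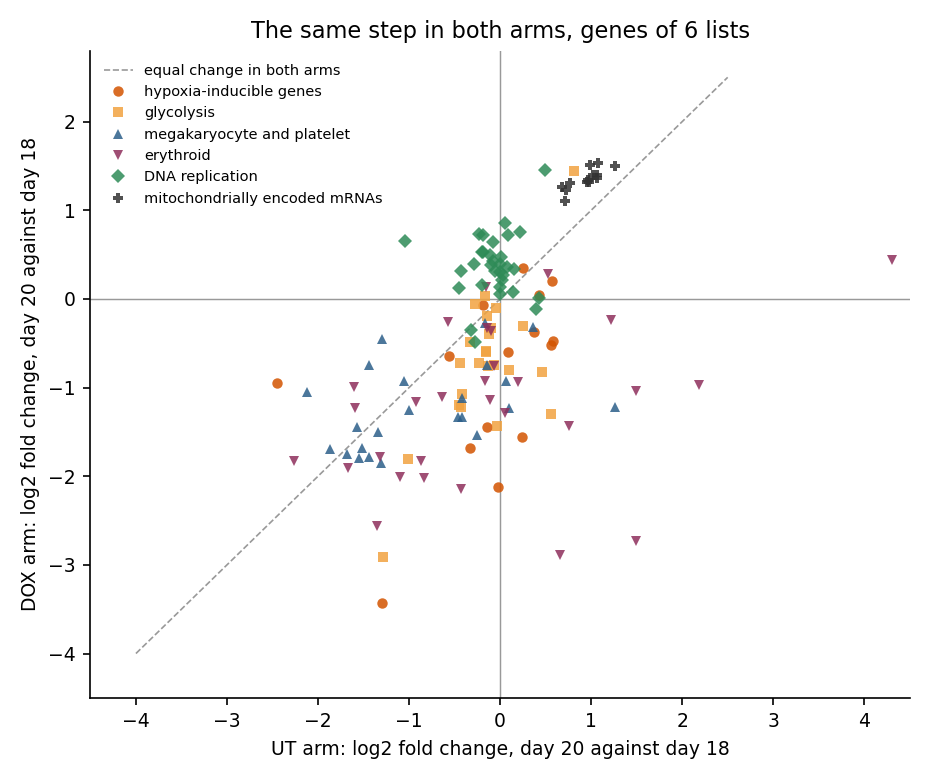
Log2 fold change from day 18 to day 20 in the DOX arm (vertical) against that in the UT arm (horizontal) for genes of 6 lists, with a dashed line where both would be equal. CA9 and HBB, with 3 or fewer counts on a side, are left out, and CA1 is drawn at the right edge (its UT value is 7.22). Hypoxia-inducible and glycolysis genes spread downward near a UT change of 0, megakaryocyte genes lie low in both arms, and the mitochondrially encoded mRNAs lie high in both.

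Genes induced by low oxygen and genes of glycolysis fell together over the DOX step. Of 16 hypoxia-inducible genes tested, 9 fell and 0 rose (median log2 fold change -0.62, against -0.01 over all genes), and of 24 glycolysis genes 14 fell and 1 rose (median -0.72). In UT, 2 of the 16 and 2 of the 24 fell (medians 0.05 and -0.15). The step differed between the arms for 5 of the hypoxia-inducible and 7 of the glycolysis genes, all toward a lower value in DOX. Without DOX day 18 replicate 1 these counts were 3 and 4, and the first was 3 without its replicate 2 or without DOX day 20 replicate 2. Cells adapt to low oxygen through hypoxia-inducible factors (HIF), which bind the core sequence ACGTG or GCGTG near genes that raise glucose uptake, glycolysis and the removal of mitochondria.

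The sequence before the start of these genes is shown because the HIF core overlaps the MYC E-box. In the 250 bases before the first RefSeq start (GRCh38.p14), both strands were searched for ACGTG or GCGTG. Each CACGTG holds ACGTG on both strands and counts as 2 matches. The stretches are written 5′ to 3′ on the gene's strand, with the matched letters in capitals.
BNIP3 (chr10:131982015-131982074, minus strand, 6 matches): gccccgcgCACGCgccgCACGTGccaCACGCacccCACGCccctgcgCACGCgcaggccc
ALDOC (chr17:28576915-28576944, minus strand, 2 matches): aggcCACGCccccggaggagtCACGTagct
LDHA (chr11:18394471-18394500, plus strand, 3 matches): actcaCACGTGggttcccgCACGTccgccg
P4HA1 (chr10:73096935-73096964, minus strand, 1 match): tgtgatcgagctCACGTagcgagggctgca
ENO2 (chr12:6914450-6914479, plus strand, 1 match): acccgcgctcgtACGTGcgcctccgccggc
The core was present before 9 of 11 hypoxia-inducible genes with an entry (81.8%) and before 12 of 22 glycolysis genes (54.5%), among them 9 of the 13 that fell (69.2%). It was as common as 43.1% in all 27305 promoters, 55.0% in those of tested genes, 53.4% in those of genes that fell and 59.6% in those of genes that rose. BNIP3L and SLC2A3 had no entry. A match describes the letters only and is not a bound site.

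BNIP3, a mitochondrial receptor for mitophagy that HIF induces, stood at 89.3 and 73.0 CPM on DOX day 18 and at 17.2 and 20.2 CPM on day 20. The UT libraries read 22.0 and 25.1 CPM on day 18 and 16.5 and 29.9 CPM on day 20. The DOX level was thus high on day 18 alone of these 4 groups, and it was also low on DOX day 16, at 29.7 and 35.3 CPM. It fell 4.34-fold (log2 fold change -2.12, SE 0.22, adjusted p = 1.1e-05), and the step differed from UT (-2.10, adjusted p = 0.0028). Its relative BNIP3L, also a mitophagy receptor, read 63.7 and 75.1 CPM on DOX day 16, 172 and 184 on day 18 and 65.0 and 65.9 on day 20. It fell 2.72-fold (log2 fold change -1.44, SE 0.17, adjusted p = 3.2e-05; difference from UT -1.30, adjusted p = 0.008), and the UT libraries stayed between 107 and 168 CPM. P4HA1, a prolyl hydroxylase subunit needed for collagen folding, went from 27.2 and 26.1 to 8.49 and 8.14 CPM (log2 fold change -1.68, SE 0.23, adjusted p = 0.0001). LOX, which cross-links collagen, went from 7.61 and 9.83 to 1.11 and 0.473 CPM (log2 fold change -3.43, SE 0.72, adjusted p = 0.0034), but did not pass without DOX day 20 replicate 2 (adjusted p = 0.05). CA9, a carbonic anhydrase and a standard HIF target, had 16 counts on day 18 and 0 on day 20, at least 1.67-fold lower with 3 counts per library as the limit of a count of 0.

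Along glycolysis, the fall began with glucose entry. SLC2A3, the glucose transporter GLUT3, read 189.9 and 194 CPM on DOX day 18 and 77.8 and 64.5 CPM on day 20, and fell 2.70-fold (log2 fold change -1.43, SE 0.13, adjusted p = 3.8e-06), while the UT libraries lay between 96.0 and 110.2 CPM on both days (difference -1.40, adjusted p = 0.0019). ALDOC, the aldolase isozyme best known from brain, had one of the largest falls of the list. It stood at 37.2 and 40.2 CPM on DOX day 16, at 92.4 and 62.7 on day 18 and at 11.5 and 9.03 on day 20. The day 18 libraries were thus the high ones of these days. The fall was 7.52-fold (log2 fold change -2.91, SE 0.22, adjusted p = 6.3e-07), and UT fell less (-1.28, adjusted p = 0.0041 for the UT step, -1.63, adjusted p = 0.0099 for the difference). ENO2, an enolase isozyme, went from 63.7 and 63.9 to 14.6 and 21.9 CPM (log2 fold change -1.81, SE 0.17, adjusted p = 4.7e-06), and its step did not differ from that of UT past the threshold (-0.80, adjusted p = 0.089).

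LDHA, which makes lactate from pyruvate and is a classical target of both MYC and HIF, read 619 and 545 CPM on DOX day 18 and 258 and 243 CPM on day 20, 2.32-fold lower (log2 fold change -1.22, SE 0.13, adjusted p = 1.1e-05). Both day 20 values lay below the UT values of the same day, 259.6 and 323 CPM, and the step differed from UT (-0.78, adjusted p = 0.023). GAPDH, the most abundant member of the list, fell from 1962 and 1648 to 1028 and 1155 CPM (log2 fold change -0.73, SE 0.15, adjusted p = 0.0028). LDHA and GAPDH have near-identical processed pseudogenes, which can take part of their reads. HK3, a hexokinase of mature myeloid cells, was the 1 glycolysis gene that rose, from 11.1 and 10.2 to 30.4 and 27.2 CPM (log2 fold change 1.44, SE 0.29, adjusted p = 0.0024), and its adjusted p was 0.051 with scaling by library size alone. Leaving out any 1 of the 4 libraries left between 12 and 14 glycolysis falls and between 5 and 9 hypoxia-inducible falls, the lowest being 5 without DOX day 20 replicate 2.

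**Figure D3:**
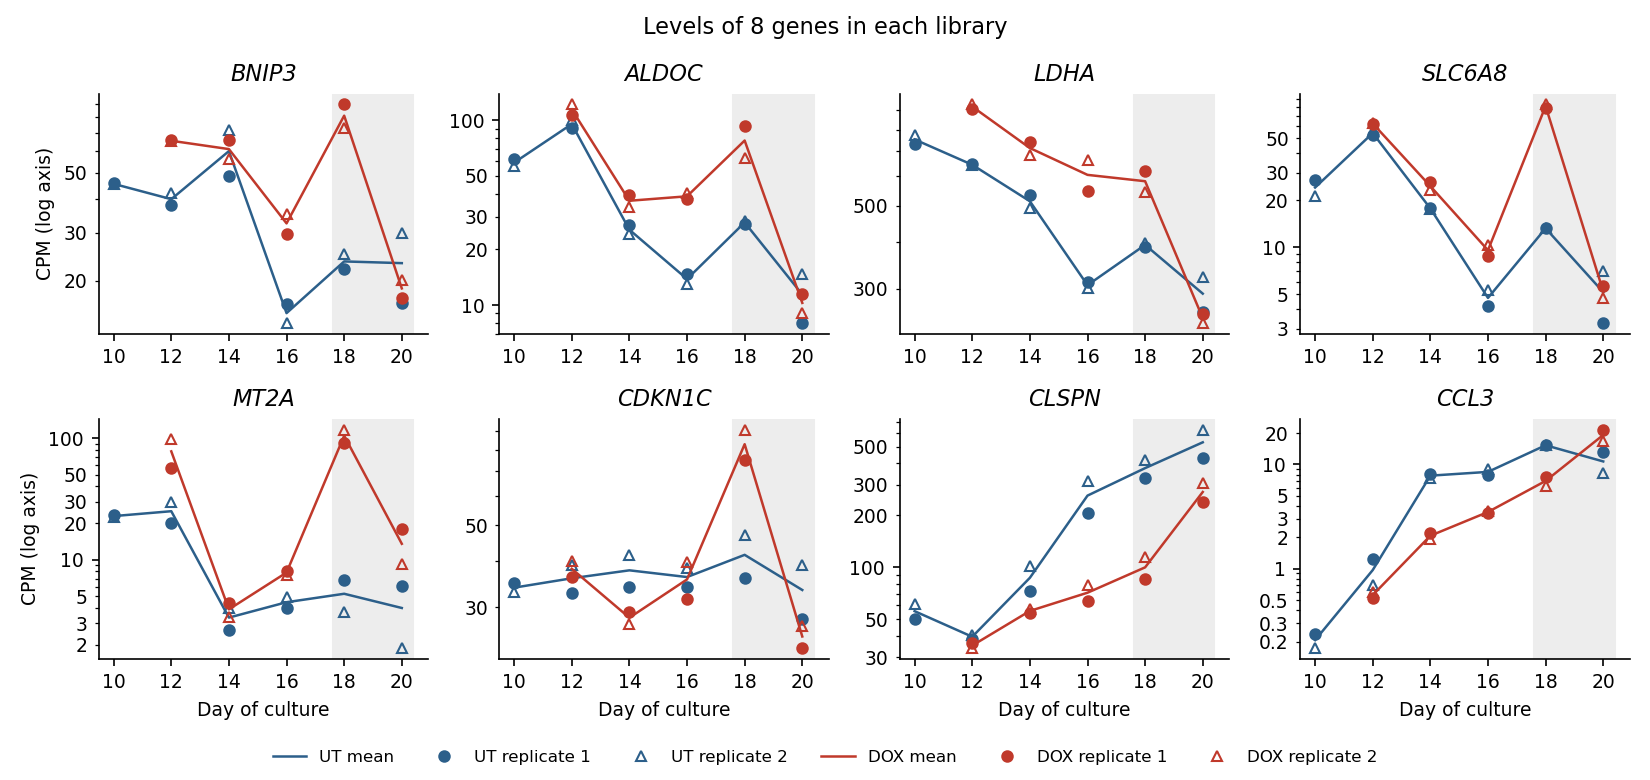
CPM on a log axis in every library for 8 genes against the day of culture, with the step in grey, replicate 1 as filled circles and replicate 2 as open triangles. BNIP3, ALDOC, SLC6A8, MT2A and CDKN1C are high in the DOX libraries of day 18 and low on day 20, LDHA falls below UT, and CLSPN and CCL3 rise.

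The shape of BNIP3, with day 18 above both neighbouring days in the DOX arm, was counted over all lists. Over all genes tested, both DOX day 18 libraries lay above all 4 of days 16 and 20 for 1789 (8.89%), and among the genes called lower on day 20 for 541 of 1750 (30.9%), a share the call itself raises. For the hypoxia-inducible list it was 8 of 16 (50%) and for glycolysis 9 of 24 (37.5%). Metallothioneins, small proteins that bind zinc and copper, reached 5 of 7 (71.4%). Next came neutrophil primary granule genes with 6 of 18 (33.3%) and cytosolic ribosomal proteins with 9 of 33 (27.3%). Erythroid genes had 8 of 30 (26.7%), CDK inhibitors and p53 targets 6 of 24 (25%), and DNA replication genes 0 of 32. The shape was therefore not confined to the first 3 lists. It covers only days 16 to 20. The hypoxia-inducible mean of log2(CPM + 0.5) in DOX was 4.22 and 4.18 on day 12 and 3.99 and 3.96 on day 14. On day 16 it was 3.26 and 3.34, and on day 18 it was 3.81 and 3.77, below day 12. The glycolysis mean was 7.42 and 7.40 on day 12 and 6.96 and 6.77 on day 18. For metallothioneins it was 2.42 and 2.91 on day 12, 0.68 and 0.52 on day 14 and 3.37 and 3.93 on day 18. These counts describe the libraries and were not tested.

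Of the 7 metallothionein and zinc export genes tested, 4 fell and 0 rose (median -2.45). The metallothionein genes among them lie in 1 cluster on chromosome 16 and are close copies of each other, so that reads may be split between them. MT2A (chr16:56608199-56609497, plus strand) stood at 8.14 and 7.54 CPM on DOX day 16, at 91.5 and 118 on day 18 and at 17.7 and 9.29 on day 20. UT read 6.76 and 3.73 CPM on day 18 and 6.13 and 1.88 CPM on day 20, far below DOX day 18. MT2A fell 7.71-fold (log2 fold change -2.95, SE 0.38, adjusted p = 6.8e-05; difference from UT -2.56, adjusted p = 0.031). MT1X (chr16:56682424-56684196, plus strand) was at 1.95 and 1.94 CPM on DOX day 16, at 26.1 and 37.2 on day 18 and at 7.56 and 3.99 on day 20 (log2 fold change -2.45, SE 0.41, adjusted p = 0.00061; difference -2.97, adjusted p = 0.018). With limma-voom the difference between the arms was called for 0 of the 7 genes. MT1G went from 14.7 and 24.5 to 4.42 and 0.578 CPM (adjusted p = 0.0051) and MT1E from 12.4 and 18.5 to 3.32 and 0.630 CPM (adjusted p = 0.0067). Without DOX day 18 replicate 2 the adjusted p was 0.063 for MT1G and 0.053 for MT1E, and without DOX day 20 replicate 2 it was 0.069 for MT1E.

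Metal-responsive transcription factor 1 reads zinc and binds the metal response element, here searched as TGCACNC or TGCGCNC on both strands of the same 250 bases. The stretches below are shown because they hold 2 matches each, in capitals.
MT2A (chr16:56608412-56608441, plus strand): gcccGTGTGCAgagccgggTGCGCCCggcc
MT1X (chr16:56682344-56682403, plus strand): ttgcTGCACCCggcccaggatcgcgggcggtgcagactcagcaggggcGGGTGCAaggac
All 4 members with an entry held the element, against 24.7% of all promoters and 31.9% of those of tested genes. MT1E and MT1G had no entry.

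Among the named genes with more than 3 counts on each day, the largest fall belonged to PNCK, a calcium- and calmodulin-dependent kinase (chrX:153669730-153689010, minus strand). Its libraries read 6.33 and 7.09 CPM on DOX day 16, 52.7 and 52.2 on day 18 and 2.56 and 2.57 on day 20, a 20.4-fold fall (log2 fold change -4.35, SE 0.23, adjusted p = 6.1e-09). SLC6A8, the creatine transporter (chrX:153688099-153696593, plus strand), read 8.78 and 10.3, then 78.5 and 82.7, then 5.66 and 4.73 CPM, a 15.5-fold fall (log2 fold change -3.95, SE 0.22, adjusted p = 6.1e-09). Both fell in UT too, from 7.39 and 7.19 to 1.19 and 1.97 CPM for PNCK and from 13.2 and 13.2 to 3.26 and 7.01 CPM for SLC6A8, and by less (-2.16, adjusted p = 0.0058 and -2.61, adjusted p = 0.0018 for the differences). The annotations of these neighbours overlap head to head on opposite strands, and the strand setting of the counting is not given in the sources used here, so their reads cannot be told apart where they overlap. Neither promoter held the HIF core.

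PPFIA4, a liprin scaffold protein, and FGF11, an intracellular fibroblast growth factor, fell 12.7-fold and 10.9-fold. PPFIA4 went from 8.36 and 5.83 to 0.531 and 0.578 CPM (log2 fold change -3.67, SE 0.34, adjusted p = 4.7e-06), and FGF11 from 16.1 and 15.3 to 1.59 and 1.26 CPM (log2 fold change -3.45, SE 0.31, adjusted p = 3.8e-06). In UT neither passed (log2 fold change -0.45, adjusted p = 0.42 and -0.54, adjusted p = 0.36), and both differences between the arms passed (-3.23, adjusted p = 0.0026 and -2.91, adjusted p = 0.0034). Both had the HIF core before the start, shown in capitals to set beside those of BNIP3 and ALDOC.
PPFIA4 (chr1:203026362-203026421, plus strand, 3 matches): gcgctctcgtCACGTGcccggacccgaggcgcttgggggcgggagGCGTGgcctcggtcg
FGF11 (chr17:7438089-7438148, plus strand, 1 match): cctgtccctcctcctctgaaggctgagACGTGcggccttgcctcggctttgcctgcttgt
The other large falls were of AQP1, a water channel of red cells and endothelium (log2 fold change -3.91, SE 0.54, adjusted p = 0.00013), of CBS, which makes cystathionine from homocysteine (log2 fold change -3.60, SE 0.56, adjusted p = 0.00036), and of MASP1, DACT3, PLXNA4 and GRIK4. CBS differed between the libraries of 1 day, with 49.2 and 13.5 CPM on day 18 and 0.752 and 4.57 CPM on day 20, though the days did not overlap. GRIK4 had 122 counts on day 18 and 3 on day 20, a ratio of 25.4 with a counting interval from 8.50 to 125. BOLA2 (163 counts, then 0, at least 17.0-fold lower) and TBC1D3D (30 counts, then 0, at least 3.13-fold lower) have near-identical copies, and their values are uncertain.

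Of 14 iron and haem genes 4 fell and 0 rose, some after a high level on day 18. HMOX1, the inducible haem oxygenase, went from 6.81 and 6.43 CPM on DOX day 16 to 29.1 and 27.0 on day 18 and 10.5 and 11 on day 20 (log2 fold change -1.38, SE 0.21, adjusted p = 0.00023; difference from UT -1.37, adjusted p = 0.02). SLC40A1, the iron exporter ferroportin, fell from 86.9 and 81.8 to 39.5 and 28.9 CPM in DOX and in UT alike (-1.30, adjusted p = 0.00014 and -1.22, adjusted p = 0.002). BLVRB, biliverdin reductase B, fell as well (-1.2, adjusted p = 0.00013). Of 14 NRF2 targets 1 rose and 3 fell.

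Within the MYC network, the partner MAX fell. MAX read 143 and 149 CPM on DOX day 18 and 77.2 and 81.3 CPM on day 20, and the UT libraries lay between 71.2 and 78.3 CPM on both days. MAX fell to values that overlapped those of UT (log2 fold change -0.88, SE 0.11, adjusted p = 5.8e-05; difference -0.91, adjusted p = 0.0058). The repressor MXI1 fell (-0.72, adjusted p = 0.011), but not past the threshold without DOX day 18 replicate 2 (adjusted p = 0.052) or DOX day 20 replicate 2 (adjusted p = 0.11). The repressor MNT rose (0.47, adjusted p = 0.04), a call lost without any 1 of the 4 libraries, and its sign turned with scaling by library size alone (-0.19).

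Genes for growth that MYC is known to activate did not fall together. Of 30 such targets 3 fell and 2 rose, with a median of -0.02 against -0.01 over all genes, and 1 fell and 0 rose without DOX day 20 replicate 2. On day 20, 23 of the 30 were higher in DOX than in UT and 1 was lower (median 0.75). On day 18 these counts were 21 and 2 (median 0.57). Over all genes 27.8% differed between the arms in either direction on day 20 and 35.8% on day 18. LDHA and SLC7A5, a leucine transporter, were 2 of the 3 that fell over the step. SLC7A5 went from 83.3 and 89.4 to 57.7 and 46.3 CPM (-0.73, adjusted p = 0.019), with adjusted p = 0.15 without DOX day 20 replicate 2 and 0.095 without DOX day 18 replicate 2. SRM, spermidine synthase, rose from 106 and 114 to 161 and 157 CPM (0.53, adjusted p = 0.022). This call was lost without any 1 of the 4 libraries, and its sign turned with scaling by library size alone (-0.12). The E-box CACGTG stood before 9 of 27 of these targets with an entry (33.3%) and before all 3 that fell, against 6.49% of all promoters, 8.52% of those of tested genes, 8.15% of those that fell and 11.3% of those that rose.

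Few ribosome biogenesis genes were called. Of 38 tested 3 rose and 1 fell (median 0.10). The rises lay near the share over all genes (6.95%) and the falls below theirs (8.7%). Fewer rose without DOX day 18 replicate 1 or without DOX day 20 replicate 2. The step differed between the arms for 5, all toward a higher value in DOX, where 6 fell in UT (median -0.31), a count that was 3 without DOX day 18 replicate 1 and 1 without its replicate 2. NOP56, a core protein of the box C/D particles that modify ribosomal RNA, rose from 242 and 233 to 370.0 and 398 CPM (log2 fold change 0.69, SE 0.14, adjusted p = 0.0021; difference 0.97, adjusted p = 0.013). With scaling by library size alone its change was 0.04 (adjusted p = 0.88). NPM1, the abundant nucleolar chaperone, read 2088 and 1881 and then 1614 and 1559 CPM (-0.32, adjusted p = 0.17). Of 33 cytosolic ribosomal protein genes 10 fell and 0 rose (median -0.32), led by RPL30, from 308 and 244 to 181 and 161 CPM (log2 fold change -0.69, SE 0.15, adjusted p = 0.0035). That count was between 2 and 10 without 1 library, lowest without DOX day 20 replicate 2, and 1 with only the groups compared. Ribosomal protein genes have many near-identical pseudogenes, and their counts are uncertain.

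All 13 mitochondrially encoded mRNAs rose (median 1.34), and 9 of them rose in UT (median 0.98). MT-CO3, a subunit of cytochrome c oxidase, had log2 fold change 1.51, SE 0.22, adjusted p = 0.00018, and MT-CYB, of complex III, log2 fold change 1.40, SE 0.28, adjusted p = 0.0022. Both DOX libraries of day 18 lay above those of day 16, and those of day 20 above those of day 18, for all 13. Nuclear genes of oxidative phosphorylation went the other way in level: 14 of 24 were ordered downward over the same 3 days without overlap (58.3%, against 10.3% of all genes), and 5 fell and 1 rose over the step. None fell past the threshold without DOX day 18 replicate 1 or without DOX day 20 replicate 2, and 1 did with only the groups compared. The mitochondrial share of counts moved with every comparison of these days, and its part in the other results was not tested. Without the mitochondrial genes 1307 genes were higher and 1742 lower.

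Part of the genes that start and run DNA replication rose. Of 32 replication genes 12 rose and 0 fell (median 0.37), against 0 rises and 1 fall in UT (median -0.03), and the step differed between the arms for 6. That last count was 1 without either DOX day 18 library and 1 with limma-voom. CLSPN, claspin, which relays the replication checkpoint, stood at 85.5 and 114 CPM on DOX day 18 and 240.3 and 306 CPM on day 20, and rose 2.73-fold (log2 fold change 1.45, SE 0.23, adjusted p = 0.00037). Both day 20 values remained below those of UT, 431 and 629 CPM. ORC1, the largest subunit of the origin recognition complex, rose from 12.9 and 11.9 to 22.1 and 19.3 CPM (log2 fold change 0.74, SE 0.16, adjusted p = 0.0038), and its step differed from UT (0.97, adjusted p = 0.026). Its change was 0.09 with scaling by library size alone (adjusted p = 0.73). For 21 of the 32 genes (65.6%, against 6.7% of all genes) both DOX day 18 libraries lay below all 4 of days 16 and 20, so day 18 was the low point of the list. The count of rises was between 5 and 11 without 1 library, lowest without DOX day 18 replicate 2, and with scaling by library size alone 1 rose and 8 fell.

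Of 28 mitosis genes 5 rose and 1 fell. The rises numbered 2 without any 1 of the 4 libraries, and with scaling by library size alone 0 rose and 19 fell. TOP2A, the topoisomerase that untangles replicated chromosomes, rose from 342 and 416 to 648 and 746 CPM (log2 fold change 0.88, SE 0.18, adjusted p = 0.0032), with adjusted p = 0.068 without DOX day 18 replicate 1 and 0.34 with scaling by library size alone. Of 15 genes of the G1 cyclin and kinase list 3 rose and 1 fell, and with scaling by library size alone 0 rose and 10 fell. CCND3, the G1 cyclin D3, went down. It read 138 and 132 CPM on DOX day 18 and 65.3 and 66.5 CPM on day 20, where UT lay between 89.3 and 98.3 CPM on both days, and fell 2.05-fold (log2 fold change -1.04, SE 0.11, adjusted p = 1.1e-05; difference -1.13, adjusted p = 0.0019).

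Among 24 inhibitors of cyclin-dependent kinases and p53 targets, 6 fell and 2 rose (median -0.10), and 5 differed from UT, all toward lower (3 without DOX day 18 replicate 1, and 2 without its replicate 2 or without DOX day 20 replicate 2). CDKN1C, the inhibitor p57, stood at 31.6 and 39.8 CPM on DOX day 16, 74.8 and 90.6 on day 18 and 23.3 and 26.7 on day 20. The day 18 libraries were the high ones of these days, and UT lay between 27.9 and 47.0 CPM on days 18 and 20. CDKN1C fell 3.31-fold (log2 fold change -1.73, SE 0.18, adjusted p = 1.1e-05; difference -1.41, adjusted p = 0.0077). CDKN2D, the inhibitor p19, fell from 50.6 and 51.4 to 18.9 and 15.8 CPM (log2 fold change -1.55, SE 0.19, adjusted p = 4.1e-05; difference -1.12, adjusted p = 0.032). GADD45A, a growth arrest gene, fell 1.59-fold (-0.67, adjusted p = 0.0017), whereas TP53I3, a p53-induced oxidoreductase, and GADD45B rose (1.25, adjusted p = 0.0011 and 1.2, adjusted p = 0.00078), which did not pass with scaling by library size alone (adjusted p = 0.061 and 0.072).

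Of 14 genes of the BCL2 family, 5 fell and 0 rose, both protective and death-promoting ones, and 3 fell without DOX day 20 replicate 2. BCL2L1, whose long form BCL-XL protects cells, read 115 and 118 CPM on DOX day 18 and 62.7 and 57.5 CPM on day 20 (log2 fold change -0.95, SE 0.11, adjusted p = 2.3e-05; difference -0.92, adjusted p = 0.0048). The death-promoting BMF (-0.93, adjusted p = 0.0028) and BCL2L11, which encodes BIM (-0.82, adjusted p = 0.00028), fell too.

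The megakaryocyte and red cell programmes fell. Of 23 megakaryocyte and platelet genes 20 fell and 0 rose (median -1.26), and of 30 erythroid genes 19 fell and 0 rose (median -1.15). In UT 11 of the 23 and 4 of the 30 fell (medians -1.06 and -0.15). The step differed between the arms for 4 genes of each list, and for 2 of each without DOX day 18 replicate 2 or without DOX day 20 replicate 2. The megakaryocyte fall carried on from day 16, with 12 of 23 genes (52.2%) ordered downward over days 16, 18 and 20 without overlap, against 10.3% of all genes, while the erythroid mean of log2(CPM + 0.5) was 3.87 and 4.15 on day 16, 3.86 and 4.08 on day 18 and 2.94 in both libraries of day 20.

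PPBP, the platelet chemokine precursor, went from 372 and 513 to 128 and 127 CPM (log2 fold change -1.79, SE 0.21, adjusted p = 2.7e-05), and PF4, platelet factor 4, from 270.2 and 301 to 102 and 65.0 CPM (log2 fold change -1.78, SE 0.22, adjusted p = 5.6e-05). UT stood lower on both days and PPBP fell there too, from 53.7 and 68.3 to 18.7 and 22.9 CPM (-1.55, adjusted p = 0.00094), and the difference between the arms did not pass (-0.24, adjusted p = 0.72). MPIG6B, an inhibitory receptor of platelets, and THBS1, thrombospondin 1, fell 3.60-fold and 2.51-fold. Among red cell genes, HBG2, a fetal globin, went from 462 and 387 to 122 and 124 CPM (log2 fold change -1.79, SE 0.28, adjusted p = 0.0004), and HBZ, the embryonic zeta globin, from 15.1 and 26.1 to 3.98 and 2.99 CPM (log2 fold change -2.56, SE 0.33, adjusted p = 7.2e-05). HBG2 is a near-identical copy of HBG1, and GYPB, a glycophorin that fell 6.65-fold, of its neighbours, so these values are uncertain.

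**Figure D4:**
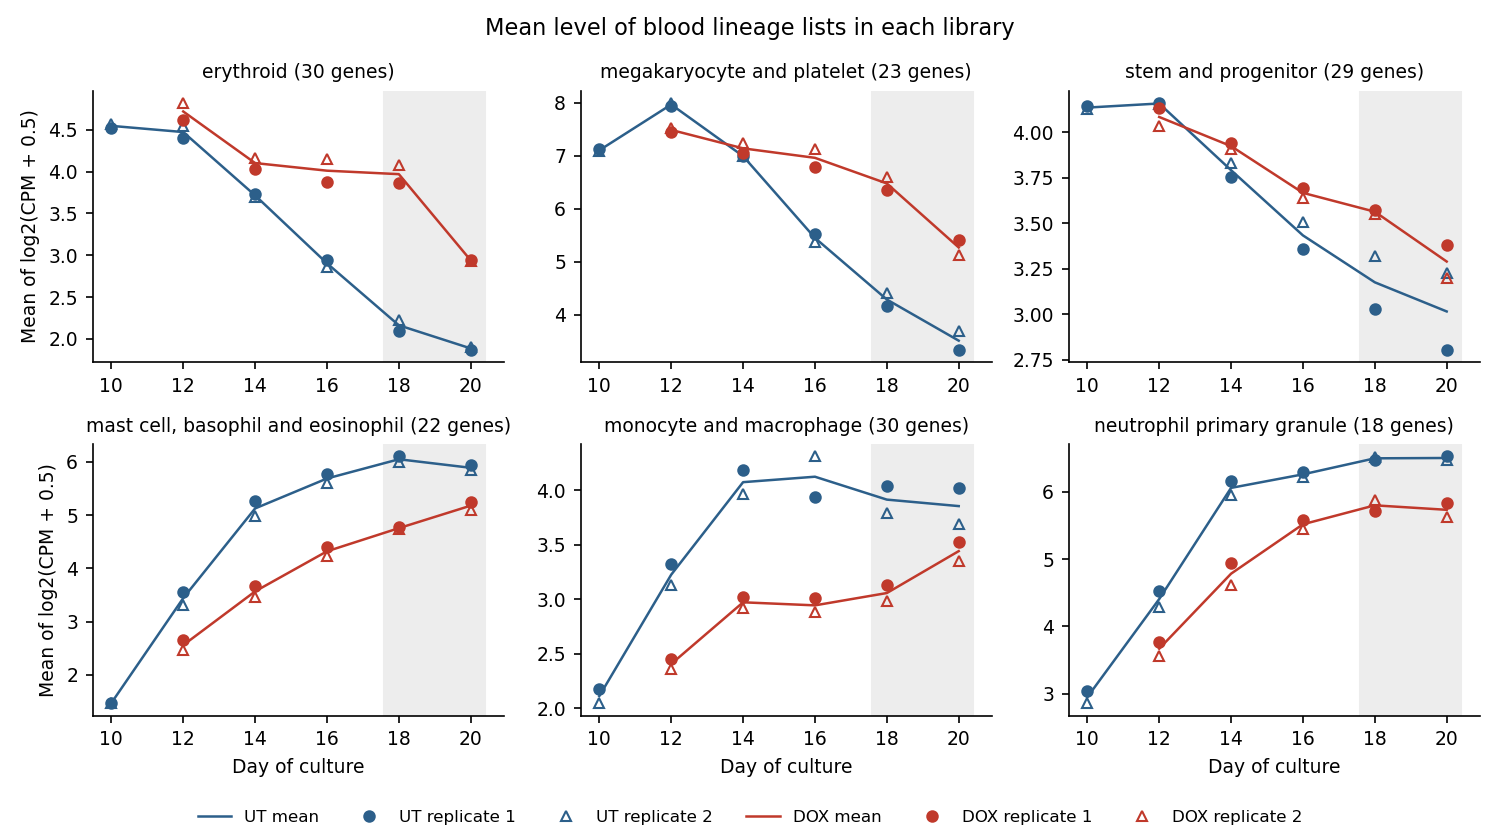
Mean of log2(CPM + 0.5) over the genes of 6 lineage lists in every library, against the day of culture, with the step in grey. The erythroid, megakaryocyte and stem cell lists drop over the DOX step, and the mast cell, basophil and eosinophil list and the monocyte list go up from below UT.

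Of 29 stem and progenitor genes 9 fell and 1 rose (median -0.42). MEIS1, a homeobox partner of HOX proteins in stem cells, went from 116 and 129 to 45.1 and 48.4 CPM (log2 fold change -1.39, SE 0.14, adjusted p = 7.3e-06), and fell in UT from 22.1 and 29.9 to 12.9 and 12.1 CPM (-1.06, adjusted p = 0.00096). GFI1B, a transcriptional repressor expressed in the megakaryocyte and red cell lineages, went from 69.9 and 72.5 to 34.1 and 32.5 CPM (log2 fold change -1.10, SE 0.18, adjusted p = 0.00045), and here the arms differed (-1.39, adjusted p = 0.0089). Of 20 endothelial genes 7 fell and 0 rose (4 fell without DOX day 18 replicate 2), against 6 falls in UT. TEK, the angiopoietin receptor, fell from 3.27 and 4.62 to 0.265 and 0.630 CPM (-3.18, adjusted p = 0.00063), and PECAM1, the adhesion molecule CD31 that platelets also carry, from 129.6 and 162 to 88.3 and 72.4 CPM (-0.86, adjusted p = 0.00054; difference -1.18, adjusted p = 0.0058). LIN28A, which blocks let-7 maturation in embryonic cells, fell 5.40-fold (-2.43, adjusted p = 0.00035).

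Some genes of granulocytes and monocytes rose. Of 22 mast cell, basophil and eosinophil genes 5 rose and 1 fell (median 0.51), and of 30 monocyte and macrophage genes 9 rose and 2 fell (median 0.36). In UT these counts were 0 and 0, and 0 and 1. The monocyte rises were between 3 and 4 without 1 library, lowest without DOX day 18 replicate 2, and 0 with scaling by library size alone. The rises of the first list were between 1 and 4, lowest without DOX day 18 replicate 1. HDC, which makes histamine, stood at 83.3 and 51.6 CPM on DOX day 16, 141 and 131 on day 18 and 310.1 and 279.5 on day 20 (log2 fold change 1.12, SE 0.23, adjusted p = 0.0031), still below UT at 523 and 484 CPM. FCN1, a ficolin of monocytes, rose from 17.9 and 18.5 to 41.4 and 43.6 CPM (log2 fold change 1.22, SE 0.22, adjusted p = 0.0013). CYBB, the catalytic subunit of the phagocyte NADPH oxidase, rose from 62.7 and 64.5 to 165 and 157 CPM (log2 fold change 1.34, SE 0.13, adjusted p = 6.2e-06), and in UT from 387 and 347 to 690.2 and 583 CPM (0.80, adjusted p = 0.002). With scaling by library size alone HDC (adjusted p = 0.14) and FCN1 (adjusted p = 0.064) did not pass. MPO, the main enzyme of neutrophil primary granules, read 812 and 819 and then 862 and 906 CPM (0.12, adjusted p = 0.67), and 1 of the 18 genes of its list fell and 0 rose. Of 22 later granule and mature neutrophil genes 3 rose and 3 fell. MMP25, a membrane metalloproteinase of neutrophils, rose from 14.8 and 12.2 to 28.6 and 25.7 CPM (1.01, adjusted p = 0.00062; adjusted p = 0.19 with scaling by library size alone), and LCN2, a granule protein that binds iron siderophores, fell from 7.21 and 8.46 to 1.37 and 3.20 CPM (-1.79, adjusted p = 0.0021). These counts were 1 rise and 1 fall without DOX day 18 replicate 1, and 1 and 2 without its replicate 2 or without DOX day 20 replicate 2.

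The largest rise among the named genes was that of ZNF366, described here with 3 other large rises. ZNF366, a zinc finger repressor also named DC-SCRIPT, stood at 0.574 and 0.413 CPM on DOX day 18 and 3.63 and 5.2 CPM on day 20, 8.99-fold higher (log2 fold change 3.17, SE 0.43, adjusted p = 0.00011). It rose in UT too, from 2.72 and 4.39 to 9.89 and 8.55 CPM (1.36, adjusted p = 0.049). P2RX7, the receptor for extracellular ATP that opens the inflammasome path, rose from 2.58 and 2.79 to 8.40 and 10.7 CPM (log2 fold change 1.83, SE 0.26, adjusted p = 0.00015), and ST14, the membrane protease matriptase, from 3.52 and 3.20 to 13.5 and 11.6 CPM (log2 fold change 1.91, SE 0.39, adjusted p = 0.0027). DUSP4, a phosphatase that turns off ERK, rose 3.40-fold (1.76, adjusted p = 0.00092). ZFP91-CNTF, NBPF19 and ANKRD36C also rose by at least 2 on the log2 scale, but share sequence with a readthrough partner or with close copies and are uncertain. Further rises of this size were those of OR4F17 (2.34), ANKRD22 (2.14) and MAPK8IP1 (2.03). The day 20 libraries lay far apart for OR4F17 (3.05 and 11.7 CPM) and MAPK8IP1 (5.13 and 15.3 CPM).

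Inflammatory and immediate early genes rose in part. Of 24 cytokine and chemokine genes tested 6 rose and 2 fell (median 0.52), and 4 differed from UT, all toward higher (2 without DOX day 18 replicate 1 or without DOX day 20 replicate 2). CCL3, a chemokine that draws in monocytes, stood at 3.38 and 3.61 CPM on DOX day 16, 7.64 and 6.24 on day 18 and 21.6 and 16.7 on day 20, and passed the UT values of 13.1 and 8.29 CPM. It rose 2.77-fold (log2 fold change 1.47, SE 0.25, adjusted p = 0.00066; difference 1.99, adjusted p = 0.0071). Its neighbour CCL4 rose from 4.05 and 3.71 to 12.2 and 10.3 CPM (log2 fold change 1.53, SE 0.32, adjusted p = 0.0032; difference 1.81, adjusted p = 0.039). CCL3 and CCL3L3 are near-identical copies, so their levels are uncertain. TGFB1, which restrains inflammation and growth, fell from 213 and 229.6 to 101 and 72.7 CPM (log2 fold change -1.35, SE 0.19, adjusted p = 0.00014).

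Of 25 immediate early and ERK feedback genes 4 rose and 2 fell, and 4 differed from UT toward higher (2 without DOX day 18 replicate 2), where 6 fell. FOS, an AP-1 subunit, rose from 12.7 and 14.4 to 44.3 and 30.4 CPM (log2 fold change 1.46, SE 0.25, adjusted p = 0.00073), and DUSP1 from 8.29 and 7.43 to 19.0 and 16.9 CPM (log2 fold change 1.19, SE 0.19, adjusted p = 0.00046; difference 1.15, adjusted p = 0.028). The receptors of interleukin 6 moved apart: IL6ST, the signal subunit gp130, fell from 57.8 and 51.8 to 23.8 and 19.2 CPM (log2 fold change -1.35, SE 0.17, adjusted p = 6.2e-05; difference -1.42, adjusted p = 0.0075), and IL6R rose from 17.9 and 20.4 to 41.6 and 34.8 CPM (log2 fold change 0.99, SE 0.15, adjusted p = 0.00029). With scaling by library size alone DUSP1 (adjusted p = 0.055) and IL6R (adjusted p = 0.13) did not pass. Of 14 genes of class I antigen presentation 5 fell and 0 rose. HLA-B (-1.01, adjusted p = 0.0012), HLA-E (-0.96, adjusted p = 0.00081) and their activator NLRC5 (-1.22, adjusted p = 0.0023; difference -1.70, adjusted p = 0.017) were among them, with the reservation that HLA genes share sequence.

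**Figure D5:**
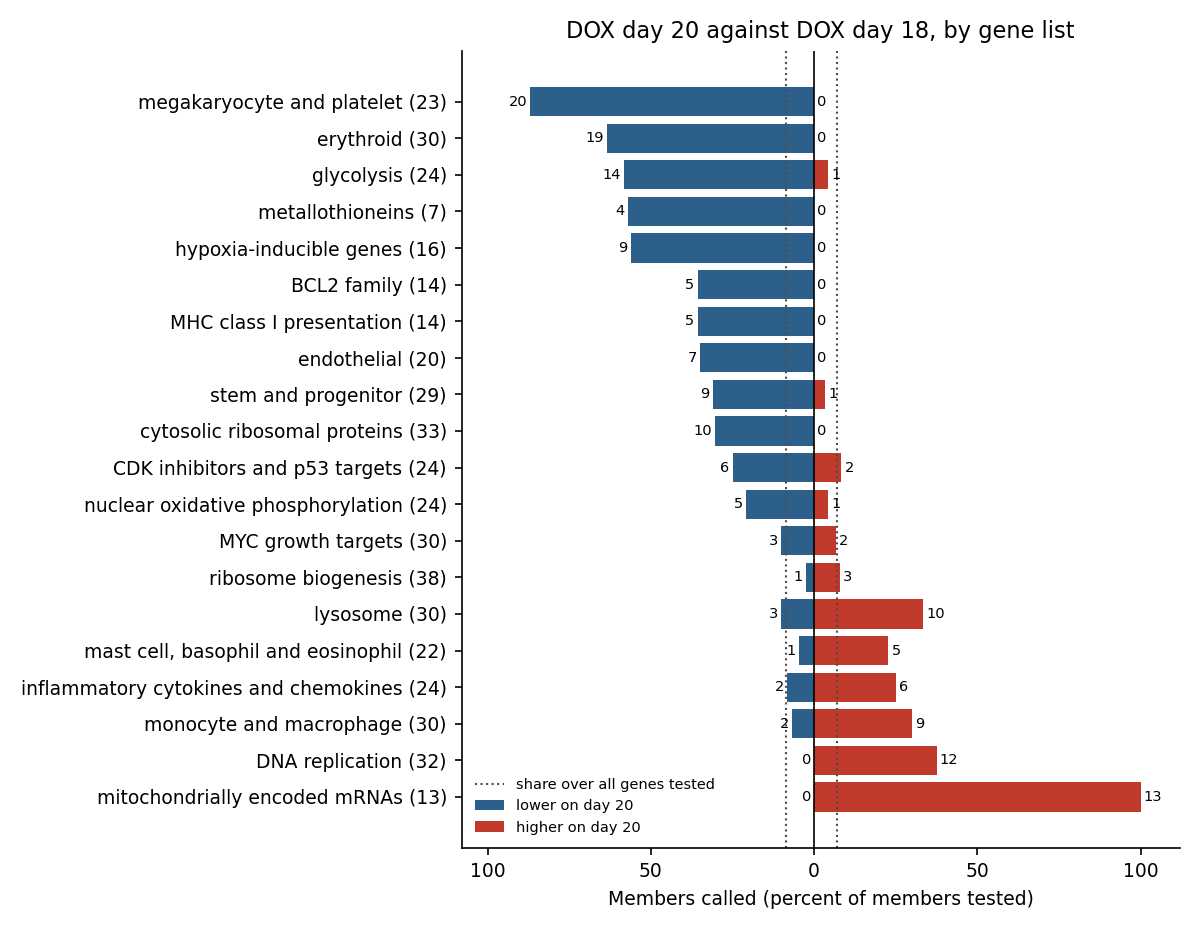
Percent of the tested members of 20 gene lists that were called lower (left, blue) or higher (right, red) on DOX day 20 than on DOX day 18, with the count at the end of each bar and the number tested in parentheses. Dotted lines mark the shares over all genes, 8.7% and 6.95%. The megakaryocyte, erythroid, glycolysis, metallothionein and hypoxia lists stand far to the left, and the mitochondrially encoded mRNAs and replication genes to the right.

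The direction of the step was then set beside differences seen on earlier days, which share no library with it. Of the 4737 genes higher in DOX than in UT over days 12 to 16 (23.5% of the genes tested), 904 fell over the step (19.1%) and 121 rose (2.55%), with a median of -0.21. Of the 3895 lower in DOX (19.4% of the genes tested), 797 rose (20.5%) and 197 fell (5.06%), with a median of 0.31. The genes that rose from day 10 to day 16 in UT, 5372 or 26.7% of the genes tested, had 997 rises over the DOX step (18.6%) and 150 falls, and the 5894 that fell in UT (29.3%) had 1164 falls (19.8%) and 115 rises (1.95%). With UT day 14 in place of day 16 the opposite calls took larger shares: 16.1% rose and 7.07% fell of the first set (median 0.17 against 0.33), and 16.8% fell and 4.97% rose of the second (median -0.13 against -0.24). Over all genes tested 8.7% fell and 6.95% rose, so the share of falls was above that background for genes raised early in DOX, and the share of rises above it for genes lowered early. These shares were not tested.

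On day 18, 7203 genes differed between DOX and UT in either direction (35.8% of the genes tested), and on day 20, 5584 did (27.8%). Over the 20115 genes, DOX day 18 replicate 1 was most like the UT mean of day 14 (Spearman's rho 0.966) and replicate 2 most like that of day 16 (0.961). Both DOX day 20 libraries were most like UT day 16 (0.965 and 0.970) rather than UT day 20 (0.937 and 0.951). These correlations run across genes, which are not independent replicates, and all points share the libraries' normalisation. MEIS1, with a DOX day 20 mean of 46.8 ± 2.31 CPM (SD, n = 2), lay between UT day 16 (66.1 ± 0.453) and UT day 18 (26.0 ± 5.49). CYBB, at 161 ± 5.56 CPM, lay between UT day 14 (114 ± 8.92) and UT day 16 (198 ± 20.5).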

How the data were processed

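PolyA-selected RNA of H1-derived haematopoietic progenitors was sequenced in 22 libraries of 11 groups (arm and day, 2 libraries each). Per the submitters' processing notes, the authors used Trim Galore 0.6.5, STAR and Salmon with hg38. The other versions, the annotation release and whether strand was used are not given in the sources used here. Deposited values are expected counts (estimated reads per gene, not normalised), of which 88.3% were whole, and they were rounded. Positions were read from GENCODE 29 (GRCh38), in which 58020 of 60240 identifiers were found.

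After filterByExpr in edgeR 4.0.16 (R 4.3.3) with a minimum count of 10, 20115 genes were tested, with TMM scaling. All contrasts came from 1 quasi-likelihood model of the 11 groups, with 11 residual degrees of freedom and a common biological coefficient of variation of 0.184. It gave the DOX step, the UT step, their difference and the other contrasts, with Benjamini-Hochberg adjustment over all genes tested and calls under 0.05. On simulated counts for this comparison (19732 genes, 50 changed per size), 12% of 1.5-fold, 56% of 2-fold, 84% of 3-fold and 90% of 4-fold changes were recovered. Changes were given only to genes at 1 CPM or more on DOX day 18. Far fewer genes changed there than the 3148 called here, which alters the adjusted threshold, so recovery in the real data may differ. A count of 0 was read with a limit of 3 counts per library, and the intervals (95%) cover counting error only.

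The comparison and the 51 gene lists, written by hand, were chosen with earlier results of these data known, so no list is independent evidence of its direction. The rule for names took MYC, the 12 largest rises and 12 largest falls among called genes whose average log2 CPM was 1 or more and whose days did not overlap, from each list its most abundant member and at most 4 called members (largest change first), and the 6 highest and 6 lowest of the step difference. EPX, CLC, CCR3, PRTN3, LTF, CD34, PROM1, MYB, FLT3 and POU5F1 were markers. Clone, locus, antisense and pseudogene names, Y-linked genes and XIST were left out. Promoter sequences are from RefSeq (GRCh38.p14). Alternatives were DESeq2 size factors and Wald test (DESeq2 1.42.0), no filter, a 1 CPM filter, library sizes alone, limma-voom (limma 3.58.1), a replicate block, mitochondrial genes removed, only the libraries compared, only the DOX libraries, a 2-fold minimum and leaving out each library. Tables, tests and figures used Python 3.11.15, pandas 2.3.3, scipy 1.17.1 and matplotlib 3.10.9.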

Additional observations from a re-analysis of the deposited data

Results flagged for a closer look

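For 50 of the named genes the change from day 18 to day 20 differed between the DOX and UT arms by a test of the difference itself (adjusted p under 0.05 in edgeR's quasi-likelihood fit over all 22 libraries). Values are the DOX step minus the UT step on the log2 scale. All 50 lost the call when only the 8 libraries of the 4 groups were fitted, where 0 genes passed and 1743 had an unadjusted p under 0.05.

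Toward a lower value in DOX stood genes of low oxygen and glycolysis, BNIP3 (-2.10), P4HA1 (-1.35), BNIP3L (-1.30), ALDOC (-1.63), SLC2A3 (-1.40) and LDHA (-0.78). The metal and haem genes MT2A (-2.56), MT1X (-2.97) and HMOX1 (-1.37) stood with them, as did PNCK (-2.16), SLC6A8 (-2.61), PPFIA4 (-3.23) and FGF11 (-2.91). Cycle and survival genes in this direction were MAX (-0.91), CCND3 (-1.13), CDKN1C (-1.41), CDKN2D (-1.12), GADD45A (-0.81), BCL2L1 (-0.92) and CBX7 (-1.56), the last a Polycomb subunit. Lineage and surface genes were GFI1B (-1.39), PECAM1 (-1.18), IL6ST (-1.42) and NLRC5 (-1.70).

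Toward a higher value in DOX stood the growth genes SRM (0.94) and NOP56 (0.97), and the cycle genes CDC25A (0.91) and ORC1 (0.97). So did CALR (0.80) of the unfolded protein response, NDUFV1 (0.75) of nuclear oxidative phosphorylation and MVD (0.83) of cholesterol synthesis. Myeloid and inflammatory genes were CD36 (1.14), MMP9 (2.18), IRF5 (1.23), CCL4 (1.81), CCL3 (1.99), NFKBIB (0.88), BIRC3 (1.01) and DUSP1 (1.15). MMP9, the gelatinase of later granules, went from 3.44 and 2.99 to 8.58 and 7.98 CPM in DOX and from 10.1 and 4.54 to 5.84 and 2.48 CPM in UT. With scaling by library size alone the DOX rises of MMP9 and CD36 were not called. With limma-voom 0 genes of the later granule, cholesterol efflux and metallothionein lists differed between the arms. In that fit 0 iron and haem genes, the list of HMOX1, differed toward lower.

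In 12 genes, BIRC3 and 11 not yet named, the UT step was larger in size than the DOX step. FSBP read 0.233 and 0.561 CPM on UT day 18 and 1.98 and 0.941 on day 20 while DOX went from 3.16 and 2.84 to 0.973 and 0.998 (-3.35), and SYT11 (-4.52), SERPINI1 (-4.32), RAB3C (-3.22) and ZNF681 (-3.18) had the same sign of difference. NR4A1, an immediate early nuclear receptor, read 7.39 and 7.19 and then 1.39 and 0.770 CPM in UT, and 4.95 and 3.38 and then 4.33 and 4.94 CPM in DOX (2.93). HAGHL (3.03), PDE2A (4.04), CHRNA5 (5.64), FAM156B (5.31) and IGSF10 (9.28) had at most 3.25 CPM on UT day 20. FAM156B has a near-identical copy, FAM156A, with which reads may be shared. IGSF10 had 0 counts in both of those libraries, so its value depends on the fit and is no bound.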

How the results depend on the processing

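The count of genes changed over the DOX step (3148) was 1249 with a 2-fold minimum, 8513 with scaling by library size alone (147 higher, 8366 lower) and 1506 when only the 4 libraries compared were fitted (637 higher, 869 lower). Without 1 library each it lay between 1659 and 2871, with rises between 501 and 1324 and falls between 1093 and 1547. DESeq2 size factors, no filter, a 1 CPM filter, limma-voom and DESeq2's Wald test left it within 1.5 times. The step difference between the arms (658) was 379 with library sizes alone (146 higher, 233 lower), 1144 without a filter (506 and 638), 146 with limma-voom (77 and 69), 1635 with DESeq2's Wald test (693 and 942), and 0 (0 and 0) with only the groups compared. Without 1 library it lay between 240 and 1018, with rises between 77 and 409 and falls between 163 and 609. For MYC, the DOX step was -1.26 with library sizes alone (adjusted p = 0.0012), -0.65 without a filter (adjusted p = 0.00079), and between -1.09 and -0.305 without 1 library. The distance of MYC from UT on day 20 was 1.25 with library sizes alone (adjusted p = 0.00098) and between -0.125 and 0.66 without 1 library. The cause of these shifts was not tested. No value for the mitochondrially encoded list was possible with those genes removed. With 1 library left in a group, that library is taken to vary like the other groups.

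Same-numbered libraries deviated together only weakly. Over 55 pairs of groups the correlation of deviations ran from -0.016 to 0.20 (median 0.038), with 5 pairs over 0.1 and 0.085 for DOX days 18 and 20. The labels do not say whether the numbers pair the samples, and the model of the 11 groups did not use them. With the replicate number as a block the DOX step had 3711 calls, the step difference 1018 (498 higher, 520 lower), and MYC -0.66 (adjusted p = 0.014).

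Of the 202 named genes called, 92 kept the call in every other fit apart from scaling by library size alone, and 78 under that as well (59 falls and 19 rises). The 2-fold minimum was applied to counts of genes and not to these names. All 202 kept their sign wherever tested, with 16 exceptions under library sizes alone: MNT (-0.19), SRM (-0.12), DDX18 (-0.052), CTPS1 (-0.056), VLDLR (-0.039), CALR (-0.22), NDUFV1 (-0.10), HSD17B7 (-0.095), NR1H3 (-0.14), RBL1 (-0.022), CDC25A (-0.044), NUF2 (-0.17), BIRC3 (-0.18), MCOLN1 (-0.016), PSMA4 (-0.074) and EZH2 (-0.062). Depth limits genes with few counts, such as CA9, GRIK4 and SLC4A1.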

Other observations

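Other gene groups held some called genes over the DOX step. Of 30 lysosome genes 10 rose and 3 fell (median 0.14), against 0 of each in UT, and the difference between the arms was called for 1. This group depended on the scaling and on single libraries. With library sizes alone 1 rose and 18 fell, and the rises numbered 2 without either DOX day 18 library, 5 without DOX day 20 replicate 1 and 3 without its replicate 2. Of 11 heat shock chaperone genes 2 rose and 0 fell (median -0.03). HSP90AA1, an abundant cytosolic chaperone, rose from 1766 and 2128 to 4450.0 and 4680.0 CPM (log2 fold change 1.23, SE 0.23, adjusted p = 0.0015), with adjusted p = 0.054 when scaled by library size alone. Of 16 unfolded protein response genes 4 rose and 1 fell. The rises numbered 1 without either DOX day 18 library and 2 without DOX day 20 replicate 2, and with library sizes alone 0 rose and 10 fell. Among the rises was CRELD2, a secreted chaperone of the endoplasmic reticulum (0.96, adjusted p = 0.00097; 0.28, adjusted p = 0.18, when scaled by library size alone).

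Of 25 genes of chromatin and DNA methylation 4 rose and 2 fell, with 1 rise without DOX day 18 replicate 1 or without DOX day 20 replicate 2. DNMT1, the maintenance DNA methyltransferase, rose 2.65-fold, from 52.5 and 65.1 to 109 and 203 CPM (log2 fold change 1.41, SE 0.30, adjusted p = 0.0037), though the 2 libraries of day 20 lay far apart and the call was lost without DOX day 20 replicate 2 (0.89, adjusted p = 0.091) and without DOX day 18 replicate 1 (1.23, adjusted p = 0.06). CBX7, a chromobox subunit of Polycomb complexes, fell from 6.92 and 8.46 to 2.39 and 3.10 CPM (log2 fold change -1.49, SE 0.29, adjusted p = 0.0019). IFITM3, an antiviral membrane protein, was the 1 called gene of 26 interferon-stimulated genes, and went from 61.0 and 66.3 to 24.0 and 13.3 CPM (log2 fold change -1.76, SE 0.22, adjusted p = 4.8e-05).

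Groups with few or no calls were also seen. None of 16 translation initiation and elongation factors passed (median -0.05), nor any of 11 HOXA and HOXB genes (median 0.35), and of 20 aminoacyl-tRNA synthetases 1 fell. Of 22 nucleotide synthesis genes 2 rose and 1 fell, of 22 mitochondrial ribosomal protein genes 1 rose and 1 fell, and of 22 MHC class II and dendritic genes 1 rose and 3 fell. At this size of experiment a missing call is weak evidence: in simulated counts the test recovered 12% of 1.5-fold and 56% of 2-fold changes. Those counts held few changed genes, all at 1 CPM or more on DOX day 18, so the percentages do not cover genes of lower level.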
